A study of Homo sapiens with 15 samples.

Results

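SQSTM1 was the member of a set of 10 autophagy genes that changed most in A549 cells under hyperoxia. It rose between 2.75-fold and 4.80-fold in all 3 treatments, and with ATRA its level in hyperoxia was lower than with vehicle, by a call that was lost without either of 2 libraries and against the libraries without vehicle. MAP1LC3B was called higher in all 3 treatments, ATG7 in 2 and GABARAPL1 in 1, by calls that were each lost in some of the fits that left out a library. Averaged over the 3 treatments, these 3 genes were called higher. GABARAPL2, ULK1, WIPI1, ATG5 and TFEB passed the test in no comparison. BECN1 was lower in 1 treatment, by a call that was lost in most of the fits that left out a library. It was also lower averaged over the treatments, by a call that was lost in some of these fits.

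The set was defined by gene symbol: SQSTM1, MAP1LC3B, GABARAPL1, GABARAPL2, WIPI1, ULK1, ATG5, ATG7, BECN1 and TFEB, 10 of the 43388 genes counted in each library. All 10 had enough counts to be tested. The set was chosen with earlier results of these data known, so the number of members called is a description and not a test. A549 is an established human lung adenocarcinoma line that grows as epithelial cells, labelled wild type. Cells were kept for 72 hours in hyperoxia (95% oxygen) or normoxia (21% oxygen) and their RNA was then sequenced. Before the exposure, 2 libraries per oxygen level had received ethanol (vehicle) and 3 had received all-trans retinoic acid (ATRA, 1e-05 mM), in both cases for 24 hours, while 2 per oxygen level are labelled with the oxygen exposure alone and are called here no vehicle. These 14 libraries form 6 groups, and another library with conflicting labels was placed in none. The labels do not say whether libraries of a group came from separate cultures, so the p-values measure the spread between these libraries, which may be technical. No measure of autophagic flux or protein was analysed here.

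Autophagy encloses cytoplasm in a double membrane that fuses with the lysosome. The ULK1 kinase starts the process, the lipid kinase complex that holds BECN1 makes the phosphoinositide to which WIPI1 binds, and ATG7 and ATG5 belong to the machinery that attaches MAP1LC3B, GABARAPL1 and GABARAPL2, small ubiquitin-like proteins of the ATG8 family, to the growing membrane. SQSTM1, also known as p62, is a receptor that ties ubiquitinated cargo to ATG8 proteins and is itself degraded with it, and TFEB is a transcription factor of lysosomal and autophagy genes.

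The starts of the 4 genes that rose in hyperoxia with vehicle are shown because these were the members called in that comparison. Each sequence holds the 250 bases before the RefSeq start site in GRCh38.p14, on the plus strand, on which all 4 genes lie. The start site used is the first annotated base of the gene. SQSTM1 is at chr5:179806143-179806392, MAP1LC3B at chr16:87392086-87392335, GABARAPL1 at chr12:10212627-10212876 and ATG7 at chr3:11272147-11272396. Capitals mark matches to 3 motifs searched on both strands: CACGTG, the core bound by TFEB and its relatives, TGACNNNGC, the core of the antioxidant response element bound by NRF2, and the repeated unit of the p53 response element.
SQSTM1: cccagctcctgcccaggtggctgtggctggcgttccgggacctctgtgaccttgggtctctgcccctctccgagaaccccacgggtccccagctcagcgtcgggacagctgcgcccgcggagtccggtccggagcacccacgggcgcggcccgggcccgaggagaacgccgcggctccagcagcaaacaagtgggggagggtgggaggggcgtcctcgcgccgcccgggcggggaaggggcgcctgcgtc
MAP1LC3B: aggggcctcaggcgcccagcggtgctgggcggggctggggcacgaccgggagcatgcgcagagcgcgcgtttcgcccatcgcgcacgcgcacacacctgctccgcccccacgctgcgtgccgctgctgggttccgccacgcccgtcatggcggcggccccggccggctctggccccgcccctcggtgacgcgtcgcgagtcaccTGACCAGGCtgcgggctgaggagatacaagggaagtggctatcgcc
GABARAPL1: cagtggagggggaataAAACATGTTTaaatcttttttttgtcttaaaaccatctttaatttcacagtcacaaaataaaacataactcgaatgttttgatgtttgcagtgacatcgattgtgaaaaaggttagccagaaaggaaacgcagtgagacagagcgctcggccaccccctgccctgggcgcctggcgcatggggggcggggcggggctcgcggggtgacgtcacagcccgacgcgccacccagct
ATG7: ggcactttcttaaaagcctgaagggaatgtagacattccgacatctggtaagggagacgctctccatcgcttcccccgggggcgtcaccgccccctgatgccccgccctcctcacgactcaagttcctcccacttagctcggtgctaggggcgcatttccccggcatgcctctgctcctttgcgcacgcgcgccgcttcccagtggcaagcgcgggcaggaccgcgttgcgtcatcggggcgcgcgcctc
CACGTG was in 0 of these 4 windows, against 6.49% of 27305 promoters of that length. MAP1LC3B held 1 match to TGACNNNGC, at position -46 from the start site, a motif found in 11% of all promoters. GABARAPL1 held 1 unit of the p53 response element, at position -234, a motif found in 5.53% of all promoters. SQSTM1 and ATG7 held no match to these letters in this window, which does not show that their promoters lack them. Which start site these cells used was not tested. Start sites further inside a gene were not searched, so the windows do not cover every promoter of these genes.

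Depth was one limit on the precision of a level, beside the spread between libraries of a group. Between 2642377 and 5605072 reads were counted on genes per labelled library, and 3 counts corresponded to 0.530 to 1.15 CPM, the count of a gene relative to the TMM-normalized total of its library. One library, hyperoxia without vehicle replicate 1, stood apart: 12657 genes had a count in it, against 16465 to 20108 in the other labelled libraries, and tests of members that include it are also given without it. The epithelial keratins KRT8 and KRT18 were abundant in all labelled libraries, with 1133 to 5913 CPM and 508 to 3495 CPM. The other epithelial markers were lower: KRT19 had 15.4 to 95.6 CPM, CDH1 had 9.28 to 79.6 CPM, and EPCAM reached 4.80 CPM at most. Of the markers of other cell types, CD3E, VWF and DCN had 0 counts in all labelled libraries and PTPRC at most 1 count, while CD14 reached 52 counts, CDH5 20, COL1A1 38, COL3A1 17 and PECAM1 4; their part in the results was not tested. Fewer cells of a type and less RNA per cell cannot be told apart in these bulk libraries.

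**Figure D1:**
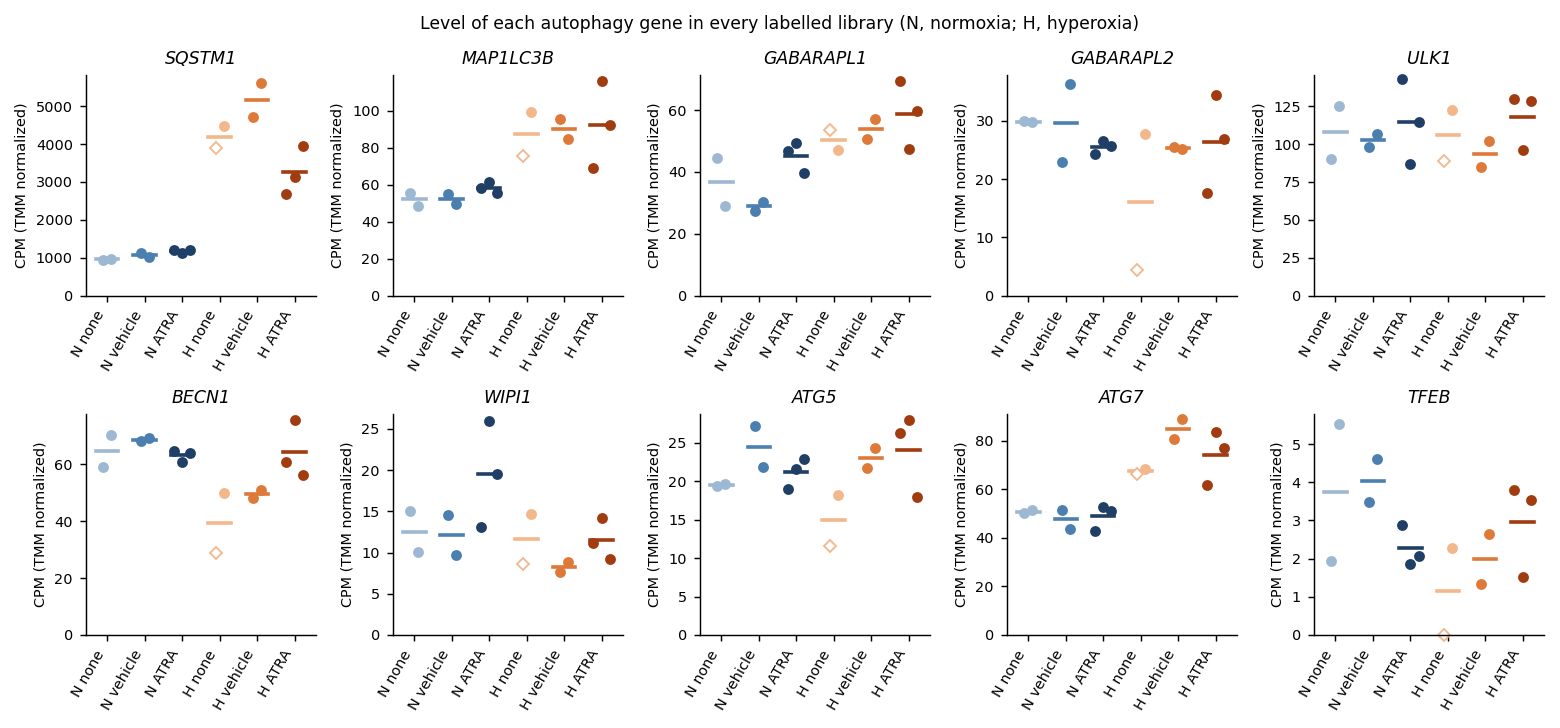
Level of each of the 10 members in the 14 labelled libraries, in CPM on linear axes from 0. Points are libraries, bars are group means, N and H stand for normoxia and hyperoxia, and the open diamond is the library that stood apart. For SQSTM1, MAP1LC3B and ATG7, the 7 hyperoxia libraries all lie above the 7 normoxia libraries.

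SQSTM1 lies at chr5:179806393-179838078 on the plus strand. Its level was 4715 and 5599 CPM in the 2 vehicle libraries in hyperoxia, 3897 and 4484 CPM in the 2 without vehicle, and 2670, 3138 and 3953 CPM in the 3 with ATRA. In normoxia it was 1139 and 1011 CPM with vehicle, 952 and 970 CPM without vehicle, and 1201, 1138 and 1205 CPM with ATRA. The lowest hyperoxia library was therefore above the highest normoxia library, and the highest levels of all were those of hyperoxia with vehicle. By counts SQSTM1 ranked between 5 and 20 among all genes in the labelled hyperoxia libraries and between 49 and 70 in normoxia. Per kilobase of transcript, its median in normoxia was 401 CPM, against 30.7 CPM for BECN1, 27.2 for GABARAPL2, 25.8 for MAP1LC3B, 21.1 for GABARAPL1, 9.56 for ATG7, 7.65 for WIPI1, 6.76 for ATG5 and 1.23 for TFEB, with ULK1 between GABARAPL1 and ATG7. In hyperoxia the median per kilobase of SQSTM1 was 1392 CPM, and MAP1LC3B had the next highest, 43.0 CPM.

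The first comparison asked how the members responded to hyperoxia when cells had received vehicle. SQSTM1, MAP1LC3B, GABARAPL1 and ATG7 were higher in hyperoxia, so that 4 of 10 were called higher and 0 lower, where 8.68% of the 14957 genes tested were called higher, 8.81% lower and 17.5% in either direction. A gene is called when the quasi-likelihood test of edgeR, adjusted over all genes by Benjamini-Hochberg, gave a p-value under 0.05. The median log2 fold change (log2FC) of the 10 members was -0.10, against 0.01 for all genes tested. SQSTM1 rose 4.80-fold (log2FC 2.26, SE 0.16, adjusted p = 3.02e-09, edgeR). It kept that call in every alternative fit and with each library left out, with a log2FC between 2.10 and 2.36 in the latter.

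MAP1LC3B, the ATG8 protein most used as a marker of autophagosomes, had 95.7 and 84.9 CPM in hyperoxia with vehicle and 55.3 and 49.7 CPM in normoxia with vehicle. GABARAPL1, another ATG8 protein, had 50.6 and 57.2 CPM in hyperoxia against 27.5 and 30.3 CPM in normoxia. ATG7, the enzyme that activates ATG8 proteins for their attachment, had 80.8 and 88.8 CPM against 51.4 and 43.8 CPM. In these 3 genes the vehicle groups did not overlap, but nor did they in BECN1, WIPI1 and TFEB, which did not pass the test. The share of all genes tested whose groups did not overlap was not computed, here or in the other comparisons. The log2FC was 0.79 for MAP1LC3B (SE 0.20, adjusted p = 0.00879, edgeR), 0.90 for GABARAPL1 (SE 0.22, adjusted p = 0.00594, edgeR) and 0.84 for ATG7 (SE 0.19, adjusted p = 0.00345, edgeR). With 2 libraries per group, each of these calls was lost in 2 of the fits that left out a library. For MAP1LC3B this happened without hyperoxia replicate 1 (edgeR adjusted p = 0.113) or normoxia replicate 2 (0.132), for GABARAPL1 without hyperoxia replicate 2 (0.0991) or normoxia replicate 1 (0.0807), and for ATG7 without hyperoxia replicate 2 (0.0701) or normoxia replicate 2 (0.0962), all vehicle libraries.

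The remaining 6 members did not pass the test with vehicle. BECN1, a subunit of the lipid kinase complex, had 48.2 and 51.0 CPM in hyperoxia against 68.1 and 69.2 CPM in normoxia, groups that did not overlap (log2FC -0.47, SE 0.18, adjusted p = 0.0880, edgeR). When only these 4 libraries were fitted, its adjusted p was 0.0133 (edgeR). WIPI1 had 7.69 and 8.83 CPM against 14.6 and 9.75 CPM, also without overlap (log2FC -0.53, SE 0.41, adjusted p = 0.438, edgeR). For ULK1 the 95% interval of the log2FC ran from -0.54 to 0.28, for ATG5 from -0.67 to 0.52 and for GABARAPL2 from -0.87 to 0.38, so changes of these sizes could not be told from none. TFEB had between 0 and 26 counts in the labelled libraries, and its interval, from -2.84 to 0.84, was the widest of the 10.

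**Figure D2:**
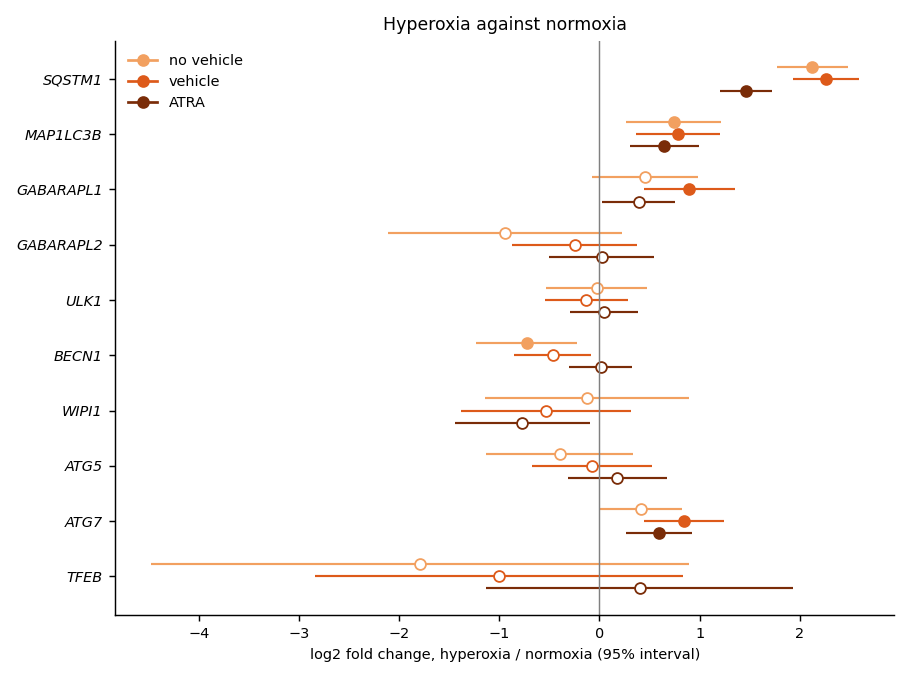
The log2FC of hyperoxia over normoxia for each member in cells without vehicle, with vehicle and with ATRA, with 95% intervals from the edgeR fit. Filled points have an adjusted p-value under 0.05; SQSTM1 and MAP1LC3B are filled in all 3 treatments and lie to the right of 0.

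Cells given ATRA answered the same question in other libraries of the same fit. With ATRA, 3 members were called higher and 0 lower, where 11.4% of all genes tested were called higher and 22.7% in either direction. SQSTM1 rose 2.75-fold (log2FC 1.46, SE 0.13, adjusted p = 2.72e-08, edgeR). MAP1LC3B had 69.2, 116 and 92.3 CPM in hyperoxia and 58.4, 61.8 and 55.4 CPM in normoxia, without overlap (log2FC 0.65, SE 0.17, adjusted p = 0.00686, edgeR). ATG7 had 61.8, 83.4 and 77.2 CPM in hyperoxia and 43.0, 52.7 and 51.0 CPM in normoxia, also without overlap (log2FC 0.59, SE 0.16, adjusted p = 0.00940, edgeR). Without hyperoxia replicate 2, the library with the highest MAP1LC3B and ATG7 levels of its group, both lost the call (edgeR adjusted p = 0.0651 and 0.0518), and ATG7 also lost it without normoxia replicate 1 (0.0559).

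GABARAPL1 did not pass the test with ATRA. It had 69.4, 47.4 and 59.7 CPM in hyperoxia and 46.7, 49.3 and 39.8 CPM in normoxia, so the groups overlapped (log2FC 0.39, SE 0.17, adjusted p = 0.117, edgeR). BECN1 had 60.9, 75.4 and 56.2 CPM in hyperoxia and 64.7, 60.9 and 64.0 CPM in normoxia (log2FC 0.01, SE 0.15, adjusted p = 0.969, edgeR). Its hyperoxia libraries lay on both sides of the normoxia ones. WIPI1 had 11.2, 14.2 and 9.21 CPM in hyperoxia and 13, 25.9 and 19.5 CPM in normoxia (log2FC -0.77, SE 0.32, adjusted p = 0.0966, edgeR).

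Without vehicle, 2 members were called higher and 1 lower, where 7.57% and 7.58% of 15339 genes were called in these directions and 15.2% in either. SQSTM1 rose 4.36-fold (log2FC 2.12, SE 0.17, adjusted p = 9.77e-07, edgeR, and a log2FC of 2.22 without the library that stood apart). MAP1LC3B had 75.5 and 99.7 CPM in hyperoxia and 55.8 and 48.5 CPM in normoxia (log2FC 0.74, SE 0.22, adjusted p = 0.0346, edgeR). Without the library that stood apart, in which it was the lower of the 2, its log2FC was 0.93 (edgeR adjusted p = 0.0129), but the call was kept in 5 of the 14 fits that left out a library. BECN1 had 29.0 and 49.8 CPM in hyperoxia and 58.9 and 70.3 CPM in normoxia, the 29.0 CPM being that of the library that stood apart. Its log2FC was -0.73 (SE 0.24, adjusted p = 0.0488, edgeR) with that library and -0.38 (edgeR adjusted p = 0.38) without it. This call was kept in 2 of the 14 fits that left out a library. The same library had the lowest level of GABARAPL2 of all 14, 4.39 CPM against 17.7 to 36.4 CPM in the others, the lowest of ATG5, 11.6 CPM, and 0 counts of TFEB, which allow up to 0.599 CPM. ATG7 and GABARAPL1 did not pass the test without vehicle, although their groups did not overlap. Their log2FC was 0.41 (SE 0.19, adjusted p = 0.165, edgeR) and 0.46 (SE 0.25, adjusted p = 0.232, edgeR). Without the library that stood apart it was 0.43 and 0.35.

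Averaged over the 3 treatments, 4 members were higher and 1 lower, where 31.1% of all genes tested were called, 15.5% in each direction. The SQSTM1 log2FC was 1.95 (SE 0.09), that of MAP1LC3B 0.73 (SE 0.12), of ATG7 0.62 (SE 0.11) and of GABARAPL1 0.58 (SE 0.14), with edgeR adjusted p-values of 4.07e-10, 0.000256, 0.000312 and 0.00376. Without the library that stood apart, the log2FC was 1.98 for SQSTM1, 0.79 for MAP1LC3B, 0.62 for ATG7 and 0.55 for GABARAPL1, and all 4 calls were kept. In SQSTM1, MAP1LC3B and ATG7, 7 of 7 hyperoxia libraries lay above all 7 normoxia libraries, and in GABARAPL1 5 of 7 did. The share of all genes tested that separated in this way was not computed. MAP1LC3B ranged from 69.2 to 116 CPM in hyperoxia and from 48.5 to 61.8 CPM in normoxia, and ATG7 from 61.8 to 88.8 CPM against 43.0 to 52.7 CPM. BECN1 was lower (log2FC -0.39, SE 0.13, adjusted p = 0.0268, edgeR), but not without the library that stood apart (log2FC -0.28, edgeR adjusted p = 0.0600), and it was kept in 8 of the 14 fits that left out a library.

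Whether ATRA changed the members was asked within each oxygen exposure, against the same vehicle libraries that serve the hyperoxia comparison. In hyperoxia SQSTM1 was the 1 member of 10 called, and it was lower with ATRA, where 0.695% of all genes tested were called lower, 1.52% higher and 2.21% in either direction. The 3 ATRA libraries, at 2670, 3138 and 3953 CPM, lay below both vehicle libraries, at 4715 and 5599 CPM. The log2FC was -0.66 (SE 0.14, 95% interval -0.95 to -0.38, adjusted p = 0.00846, edgeR), a level 1.59-fold lower. The call rested on few libraries: the adjusted p from edgeR was 0.224 without vehicle replicate 2, the library with the highest SQSTM1 level, and 0.0504 without ATRA replicate 1, the one with the lowest, with a log2FC of -0.54 in both. Against the hyperoxia libraries without vehicle, at 3897 and 4484 CPM, the log2FC was -0.37 (edgeR adjusted p = 0.245). It was -0.47 without the library that stood apart, which left 1 library as control. ATRA replicate 3 lay above the library that stood apart, at 3897 CPM, and all 3 ATRA libraries lay below the other, at 4484 CPM.

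In normoxia 0 of 10 members were called with ATRA by edgeR, where 1.25% of all genes tested were, and 1 member, GABARAPL1, had an unadjusted p under 0.05. DESeq2 also called 0. SQSTM1 differed by a log2FC of 0.14 (95% interval -0.15 to 0.43, adjusted p = 0.897, edgeR). GABARAPL1 had 46.7, 49.3 and 39.8 CPM with ATRA and 27.5 and 30.3 CPM with vehicle, without overlap (log2FC 0.64, SE 0.21, adjusted p = 0.196, edgeR). The normoxia libraries without vehicle, at 44.5 and 29.0 CPM, spanned most of that gap. Between vehicle and no vehicle libraries edgeR called 0 of 10 members at either oxygen level, with an unadjusted p under 0.05 in 0 of them. Over all 15339 genes it called 1 in hyperoxia and 0 in normoxia. Without the library that stood apart, 0 members were called in hyperoxia either.

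The difference between the ATRA effects in hyperoxia and in normoxia was tested itself, and edgeR called 0 of 10 members, where 0.140% of all genes tested were called (0.100% higher and 0.0401% lower). SQSTM1 was the 1 member with an unadjusted p under 0.05: the difference was -0.80 on the log2 scale (SE 0.20, adjusted p = 0.165, edgeR). DESeq2 on the same libraries called it, with an adjusted p of 0.000886, and so did edgeR without the filter on low counts (0.00151) and without ATRA replicate 3 in hyperoxia (0.0372). BECN1 differed with ATRA by a log2FC of 0.36 in hyperoxia and -0.12 in normoxia, and its groups did not overlap at either oxygen level, but the difference of 0.48 did not pass (SE 0.24, adjusted p = 0.699, edgeR). For MAP1LC3B the 95% interval of the difference ran from -0.68 to 0.41 and for ATG7 from -0.77 to 0.27.

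**Figure D3:**
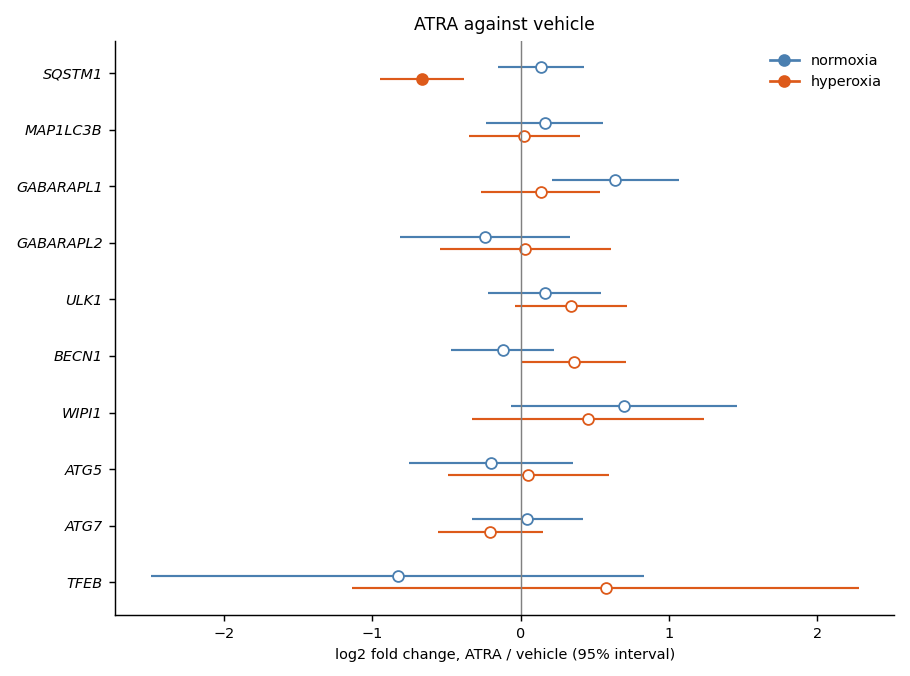
The log2FC of ATRA over vehicle for each member in normoxia and in hyperoxia, with 95% intervals from the edgeR fit. The filled point, SQSTM1 in hyperoxia at -0.66, is the one with an adjusted p-value under 0.05, and SQSTM1 in normoxia lies at 0.14.

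SQSTM1 shares sequence with MRNIP, a DNA repair gene on the opposite strand, and they have 1582 exon bases in common in GENCODE annotation. The counting setting for strand is not given in the sources used here, although the library kit preserved strand, so reads of both genes in that stretch cannot be told apart. MRNIP held between 9.78% and 13.7% as many counts as SQSTM1 in every library. Its log2FC was 2.39 in hyperoxia with vehicle (SE 0.16), 1.60 with ATRA (SE 0.13) and -0.59 for ATRA in hyperoxia (SE 0.14), with edgeR adjusted p-values of 2.18e-09, 1.34e-08 and 0.0215. MRNIP thus moved with SQSTM1 in each of these. When the counts of both were summed into one row, no call on SQSTM1 changed. MRNIP added at most 13.7% to the counts and moved the same way, so this sum could hardly have changed a call. It does not tell the reads of the 2 genes apart.

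**Figure D4:**
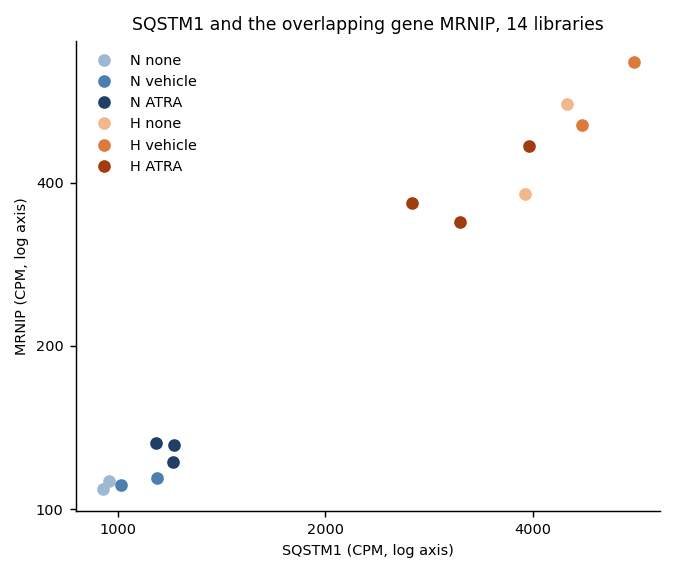
CPM of SQSTM1 (horizontal) against CPM of the overlapping gene MRNIP (vertical) in the 14 labelled libraries, both on log axes, coloured by group (N, normoxia; H, hyperoxia). The normoxia libraries form one cluster at low levels of both genes, and the hyperoxia libraries with ATRA lie toward the lower part of the hyperoxia cluster.

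Other members overlap genes as well. Over the 14 labelled libraries, VGLL4 held 73.3% as many counts as ATG7 and CNTD1 59.1% as many as BECN1. MGAT4B held 6.18% as many as SQSTM1 and ARSG 114% as many as WIPI1. These genes all lie on the opposite strand. Between libraries the share ranged from 39.3% to 99.7% for VGLL4 and from 41.9% to 93.8% for CNTD1. It ranged from 3.27% to 13.5% for MGAT4B and from 54.8% to 210% for ARSG. What these overlaps contribute to the calls was not tested. WIPI1 also lies within the span of PRKAR1A, which held 2103% as many counts but shares 0 exon bases with it. Counts of MAP1LC3B and GABARAPL1 carry a further uncertainty, since near-identical copies (MAP1LC3B2 and GABARAPL3) can share their reads.

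Around the members, 66 other autophagy genes in 10 roles were examined, of which 65 had enough counts. They were chosen with earlier results of these data known, so the shares called, here and by role below, are descriptions and not tests. With vehicle, 16 were higher in hyperoxia and 1 was lower, with a median log2FC of 0.30 against 0.01 for all genes tested, of which 8.68% were called higher and 8.81% lower. With ATRA 20 were higher and 3 lower, against 11.4% and 11.3% of all genes tested. Without vehicle 14 were higher and 2 lower, against 7.57% and 7.58% of all genes tested, and 11 and 1 when the library that stood apart was left out. The 3 treatments compare different libraries, but their tests are not independent, because the fits share estimates of the spread. In these treatments 11 genes were higher each time and 1, CALCOCO2, was lower each time. Without the library that stood apart these counts were 10 and 1. The share of all genes tested that were called in all 3 treatments was not computed, so these counts cannot be set against it. CALCOCO2 had 4.39 CPM in that library and 54.4 CPM in the other of its group, and its log2FC without vehicle was -1.75 with it and -0.79 without it (edgeR adjusted p = 0.0492 and 0.0181).

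Of the 9 relatives and controllers of TFEB, 6 were higher with vehicle, where 8.68% of all genes tested were, and their median log2FC was 1.06. TFE3 (log2FC 1.41, SE 0.14) and MITF (1.06, SE 0.21) are transcription factors of the same family as TFEB, which itself had a log2FC of -1.0 (SE 0.88) and passed no test. FLCN (1.19, SE 0.21) and RPTOR (0.85, SE 0.15) belong to the nutrient signalling that holds these factors in the cytoplasm. The edgeR adjusted p-values of these 4 genes lay between 4.21e-07 and 0.000863.

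All 4 regulators known as p53 targets were higher with vehicle: TP53INP1 (log2FC 1.83, SE 0.23), SESN2 (1.64, SE 0.27), SESN1 (1.34, SE 0.33) and DRAM1 (0.81, SE 0.19), with edgeR adjusted p-values from 7.96e-06 to 0.00715. With ATRA all 4 were higher too, with SESN2 at 2.53 (SE 0.23), and without vehicle 3 of 4 were. Of all genes tested, 8.68% were called higher with vehicle, 11.4% with ATRA and 7.57% without vehicle. Of the 12 receptors other than SQSTM1, 2 were called higher with vehicle, where 8.68% of all genes tested were, and 1 lower, where 8.81% were. OPTN (1.48, SE 0.18) and NBR1 (1.11, SE 0.17), which like SQSTM1 bind ubiquitin and ATG8 proteins, were higher, with edgeR adjusted p-values of 3.45e-06 and 6.06e-05. CALCOCO2, a receptor for bacteria and mitochondria, was lower (-0.54, SE 0.17, adjusted p = 0.0260, edgeR), and the remaining 9 did not pass.

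In the 6 roles of the machinery itself, 3 of 37 genes were called higher with vehicle and 0 lower, a share near the 8.68% of all genes called higher. ATG13, the partner of ULK1, was higher by a log2FC of 0.90 (SE 0.16), UVRAG, a partner of BECN1, by 0.82 (SE 0.25) and PLEKHM1, which acts in fusion with lysosomes, by 0.71 (SE 0.22), with edgeR adjusted p-values of 0.000311, 0.0237 and 0.0258. TRAF6, a ubiquitin ligase that binds SQSTM1, was higher by 1.08 (SE 0.31, adjusted p = 0.0176, edgeR). Of the 8 genes for conjugation and processing of ATG8 proteins, the role in which ATG7 and ATG5 act, 0 passed by edgeR, and 2 had an unadjusted p under 0.05. With ATRA in hyperoxia, 1 of 65 genes was called, AMBRA1, an activator of the BECN1 complex (log2FC 0.77, SE 0.19, adjusted p = 0.0370, edgeR), where 2.21% of all genes tested were called. Its call was lost with all 14 libraries in the fit and without hyperoxia vehicle replicate 1 or 2, hyperoxia ATRA replicate 2 or normoxia ATRA replicate 1.

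**Figure D5:**
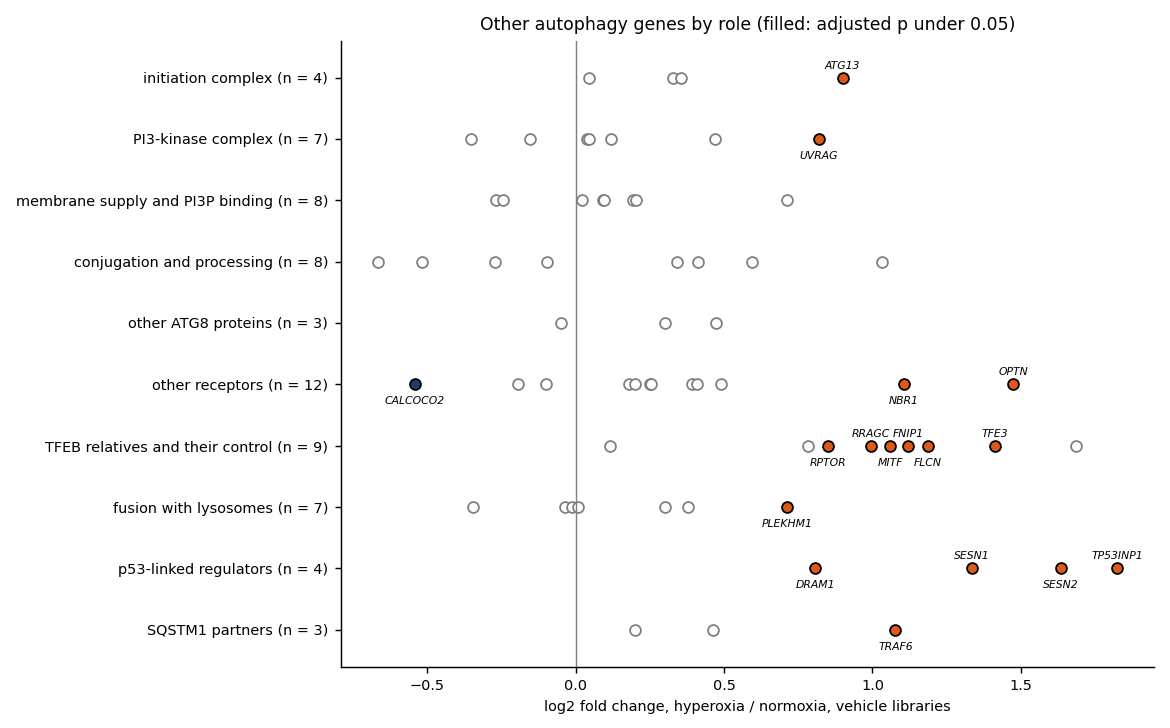
The log2FC of hyperoxia over normoxia with vehicle for the 65 other autophagy genes tested, one row per role with its number of genes. Filled points have an adjusted p-value under 0.05 (orange higher, dark blue lower). Filled are 6 of 9 TFEB relatives and controllers and 4 of 4 regulators known as p53 targets, where 8.68% of all genes tested were called higher. The lists were chosen with earlier results of these data known, so these counts test no role.

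Across the 14 labelled libraries, the log2 CPM of ATG7 and MAP1LC3B followed that of SQSTM1 most closely among the members, with Pearson's r of 0.92 and 0.89, while BECN1 had -0.58. These describe libraries that share the oxygen contrast and differ in depth, and have no test. Over all genes, those whose log2 CPM was most like that of SQSTM1 included PPP1R15A (r = 0.990) and PLA2G4C (0.988). For MAP1LC3B they were CHST15 (0.968), RUNX1 (0.960) and TMEM87B (0.959), for ATG7 DUSP11 (0.959), RAB30 (0.953) and TBC1D7 (0.948), and for GABARAPL1 PRRT2 (0.928), RAI14 (0.912) and OXSR1 (0.900). The nearest genes of GABARAPL2, ATG5 and TFEB rested on the library that stood apart: r with MED18, SIK3 and SEC23A-AS1 fell from 0.975, 0.935 and 0.926 over 14 libraries to 0.768, 0.843 and 0.747 over 13. For BECN1, RTEL1 had 0.980 and 0.936, for ULK1, WDTC1 had 0.858 and 0.848, and for WIPI1, RBPJ had 0.872 and 0.866.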

How the data were processed

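RNA-seq libraries from A549 cells were analysed from the read counts per gene symbol that the authors deposited. Per the study's methods and the submitters' processing notes, the authors used Trimmomatic 0.38 for trimming, hisat2 for alignment to hg38 and htseq for counting, and the deposited counts are raw. The annotation release and the strand and overlap settings are not given in the sources used here. Reads assigned to no gene, 75.2% to 78.4% of each library, stayed out of library sizes.

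The analysis ran in R 4.3.3 with edgeR 4.0.16. The filterByExpr function (count 10, total 15) took out weakly counted genes, library sizes were normalized by TMM, and quasi-likelihood models were fitted to 10 libraries in 4 groups (vehicle and ATRA, 14957 genes) and, for comparisons without vehicle and the average, to 14 libraries in 6 groups (15339 genes). P-values were adjusted by Benjamini-Hochberg over all genes tested. Log2 CPM used a prior count of 2. Limits from 3 counts cover counting error only. Promoter sequences and gene positions came from RefSeq (GRCh38.p14), which matched 10 of 10 members, and transcript lengths and exon overlaps from GENCODE annotation. The code was tested on simulated data for hyperoxia against normoxia with vehicle. There 3.74% of edgeR calls and 10.2% of DESeq2 calls fell on genes simulated without a change. Of the simulated 2-fold changes, edgeR called 39.6% and DESeq2 41.7%, so many changes of that size would be missed. Figures were drawn with matplotlib 3.10.9.

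Named genes were the 10 members, genes overlapping them, at most 4 per role of the 66 other autophagy genes (smallest p first, among those called with vehicle in hyperoxia against normoxia or with ATRA in hyperoxia), and the 3 genes most like each member. One result covered by this rule is not reported here. FNIP1 and RRAGC appear in a plot, where all called genes are labelled. The members and lists were chosen with earlier results of these data known. Alternatives were DESeq2 1.42.0, RLE size factors, no filter, only the groups compared, all 14 libraries, a term for 3 runs of library numbers, SQSTM1 and MRNIP summed, and each library left out. The libraries without vehicle as control for ATRA, and fits without the library that stood apart, were added after seeing the data. Protein sequences were not used here.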

Additional observations from a re-analysis of the deposited data

Results flagged for a closer look

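In the library that was placed in no group, because its title names hyperoxia and its treatment label names another procedure, SQSTM1 had 5398 CPM, MAP1LC3B 97.3 CPM, GABARAPL1 57.2 CPM and ATG7 85.7 CPM. Each of these 4 levels was above every labelled normoxia library and within the range of the labelled hyperoxia libraries. The library entered no comparison.

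For BECN1, ATRA and vehicle groups were apart in opposite directions at both oxygen exposures: the 3 ATRA libraries lay above both vehicle libraries in hyperoxia and below both in normoxia. The difference between the effects was 0.48 on the log2 scale (SE 0.24, adjusted p = 0.699, edgeR). How many of all genes tested lay apart in this way was not computed.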

How the results depend on the processing

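No paired analysis was possible because the labels give the groups no shared replicate numbers, and those used here only name libraries in the order of their labels. The rise of SQSTM1 in hyperoxia kept its call and direction in all alternatives and with every library left out, in each treatment. The number of members called with each library left out ranged from 2 to 4 with vehicle, from 1 to 3 with ATRA, from 1 to 4 without vehicle, from 4 to 8 for the average, from 0 to 1 for ATRA in hyperoxia and from 0 to 1 for the difference of the ATRA effects. For the 66 other genes these ranges were 10 to 19, 18 to 20, 6 to 32, 18 to 35, 0 to 3 and, for the difference, 0 throughout. The highest counts without vehicle (32) and for the average (8 and 35) came from leaving out hyperoxia without vehicle replicate 2, which left the library that stood apart as the only one of its group.

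DESeq2 and the fit without a filter each called 1 member for the difference of the ATRA effects, SQSTM1, and 3 other genes for ATRA in hyperoxia. The term for runs of library numbers gave 2 of the latter, moved BECN1 without vehicle to an adjusted p of 0.114, and reversed GABARAPL2 with ATRA in hyperoxia against normoxia (-0.0041) and ULK1 without vehicle (0.0091). With all 14 libraries, the other genes called numbered 11 with vehicle, 14 with ATRA and 0 for ATRA in hyperoxia. With the libraries without vehicle as control, ATRA in hyperoxia gave 0 members and 0 other genes, WIPI1 (-0.0099) and ATG7 (0.13) reversed there, and ATG5 (0.12) and ATG7 (-0.053) reversed in normoxia. With only the groups compared, hyperoxia without vehicle gave 1 member and 1 other gene, MAP1LC3B had an adjusted p of 0.280 and BECN1 0.422 there, and BECN1 with ATRA reversed (-0.0019). The cause was not tested. In all, 51 values for members changed sign, 44 of them with a library left out, and 0 of them had passed the test. The other sign changes came with a library left out, in log2FC values that had not passed the test. For hyperoxia with vehicle, ATG5 ranged from -0.25 to 0.052 and GABARAPL2 from -0.55 to 0.12. For hyperoxia with ATRA, ULK1 ranged from -0.11 to 0.24, GABARAPL2 from -0.23 to 0.26 and BECN1 from -0.14 to 0.087. For hyperoxia without vehicle, ULK1 ranged from -0.33 to 0.19 and WIPI1 from -0.61 to 0.21. For the average, ULK1 ranged from -0.16 to 0.033 and ATG5 from -0.25 to 0.0019. For ATRA in hyperoxia, GABARAPL1 ranged from -0.0032 to 0.24, ATG5 from -0.070 to 0.22, MAP1LC3B from -0.18 to 0.20 and GABARAPL2 from -0.21 to 0.26. For ATRA in normoxia, ULK1 ranged from -0.025 to 0.33, ATG7 from -0.075 to 0.15 and GABARAPL2 from -0.52 to 0.15. For the difference of the ATRA effects, MAP1LC3B ranged from -0.35 to 0.039, WIPI1 from -0.53 to 0.042 and GABARAPL2 from -0.12 to 0.55.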
